A study of Mus musculus with 24 samples.

Results

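The expression of 40 genes of glycolysis and the response to low oxygen was examined in mouse pulmonary fibroblasts. The genes were chosen by name, from the enzymes and transporters of glucose use and from well-known genes of the hypoxia response, and not by any measured value in the rule itself. Earlier results of these data were known when they were chosen, so their shares beside those of all tested genes are descriptive. All 40 were found among the 55291 gene names counted in each library, all had a mean of at least 10 reads, and all 40 were among the 16258 genes tested. The cells came from the lungs of C57BL/6 mice 4 to 8 weeks old, either WT or labelled TLR4-/-, and the cells of each group were prepared from a pool of 3 to 4 lungs and used at passages 3 to 6. After a night in reduced serum medium, they received PBS, rmCIRP at 1 μg/mL, rmTGF-β1 at 2 ng/mL, or these proteins together (called both below) for 24 h, with 3 libraries for each of the 8 conditions. The recombinant mouse protein rmCIRP stands for the extracellular form of cold-inducible RNA-binding protein, a danger signal that is sensed through TLR4, and rmTGF-β1 for the growth factor that drives fibroblasts toward matrix production.

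Glycolysis splits glucose into pyruvate. Glucose enters through transporters of the SLC2A family, hexokinases trap it as glucose 6-phosphate, the phosphofructokinase step is the main control point, and pyruvate is reduced to lactate or passed to the mitochondria. The pentose phosphate pathway draws off glucose 6-phosphate to make NADPH and ribose. Under low oxygen, the HIF transcription factors are no longer hydroxylated by the EGLN enzymes, build up as proteins, and raise many glycolytic genes together with genes such as Vegfa and Adm. Activated immune cells and fibroblasts are known to change the same genes without a lack of oxygen.

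The libraries held 29853346 to 39664606 reads on genes, of which the 40 genes took 1.18% to 1.34%. Gapdh, Pkm, Vegfa, Eno1 and Ldha together made up 57.8% to 62.2% of the reads of the 40 genes in each library. Levels are given as normalized counts, which are reads divided by the size factor of the library. Tlr4 mRNA was at 630 to 802 normalized counts in the 12 WT libraries and at 702 to 941 in the 12 libraries labelled TLR4-/-. It was not lower in the latter. The labels do not say which allele the mice carry or whether it leaves the counted transcript. This level therefore cannot check the genotype, and these libraries are named by their label. The female-specific RNA Xist had 0 to 3 reads in WT libraries and 4403 to 6201 in those labelled TLR4-/-, so the genotype label, the difference in Xist and the cell preparation cannot be told apart. All 10 fibroblast markers were present in every condition, and with PBS 3 of them were lower and 1 higher in the label TLR4-/-. The 18 macrophage markers were also present, and their summed level with PBS was 402230 ± 26792 (SD, n = 3) in the label TLR4-/- against 104060 ± 4939 (n = 3) in WT, a ratio of 3.87. Epithelial markers summed to 338 ± 9.58 in the label TLR4-/- against 89.0 ± 24.2 in WT with PBS, and all 3 that were tested were higher. Of 7 endothelial markers, 1 was higher and 5 were lower in the label TLR4-/- with PBS. In bulk RNA, fewer cells of a type and less RNA per cell cannot be told apart. Libraries 1 and 3 labelled TLR4-/- with both treatments stood furthest apart of all replicate pairs, and the median coefficient of variation of the 40 genes was 7.22% in that condition against 2.42% to 4.65% in the others.

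Levels between genes were compared per kilobase of exon. The length joined all annotated exons of a gene, which can exceed the transcript present, so the sizes of differences between genes depend on it. In WT cells with PBS the highest were Gapdh at 16070 ± 679 normalized counts per kb, the pyruvate kinase gene Pkm at 13311 ± 729, the lactate dehydrogenase gene Ldha at 11747 ± 470 and the aldolase gene Aldoa at 11587 ± 563 (SD, n = 3 each). Ldha and Aldoa overlapped between libraries. Where an enzyme has several genes, the order was wide for some and narrow for others. Ldhb reached 352 ± 29.9 normalized counts per kb beside Ldha, the neuronal enolase gene Eno2 reached 70.6 ± 2.87 beside 7458 ± 460 for Eno1, and the aldolase gene Aldoc reached 25.2 ± 0.74 beside Aldoa. Among hexokinases, Hk2 was at 928 ± 32.1, Hk1 at 452 ± 18.9 and Hk3 at 154 ± 7.60 normalized counts per kb. Slc2a3, the neuronal-type glucose transporter, was lowest of the 40 at 12.3 ± 0.61 and passed the test in no comparison.

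**Figure D1:**
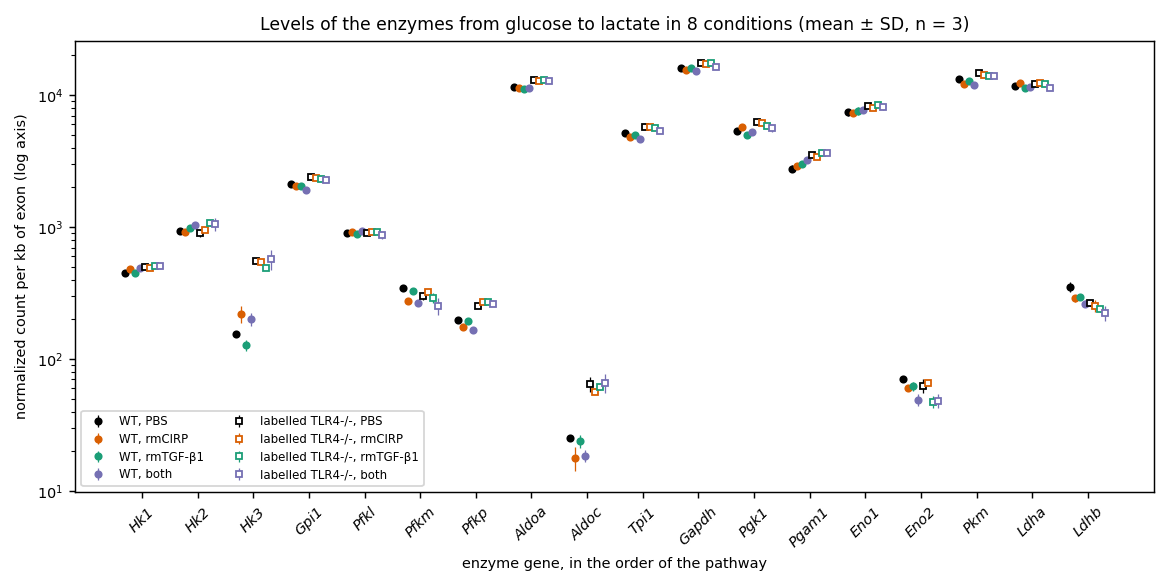
Normalized counts per kilobase of exon (log axis, mean ± SD, n = 3) of the enzyme genes from glucose to lactate, in pathway order, in WT (filled) and labelled TLR4-/- libraries (open) with PBS, rmCIRP, rmTGF-β1 or both. Gapdh, Pkm, Ldha and Aldoa lie at the top in every condition, Aldoc and Eno2 at the bottom, and Hk3 and Aldoc show the widest gaps between WT and the label TLR4-/-.

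Promoters were read from RefSeq on GRCm38.p6, as the 250 bases before the annotated start, to show where the short sequence known from HIF binding stands in genes that rose, and in a gene that did not. The letters searched were ACGTG (or CACGT on the other strand) and GCGTG (or CACGC), and CACGTG counts under both ACGTG and CACGT. Of the 40 genes, 38 had promoters in the table, with 53 windows because some genes have several starts. ACGTG or its reverse was in 22 of the 53 windows (41.5%), against 16.6% of all 32851 mouse windows and 20.9% of the 14896 windows of tested genes. GCGTG or its reverse was in 31 (58.5%), against 28.2% and 42.4%. A match of letters is a description and not a site of binding. Because the 40 genes were chosen in part as known hypoxia-response genes, these shares do not test a link to HIF. Windows of a gene with several starts can overlap, as in Aldoa and Eno1, so the same match can be counted more than once. The windows below are those of the glucose transporter Slc2a6 (chr2:27027999-27028248, minus strand), the HIF hydroxylase Egln3 (chr12:54203875-54204124, minus strand), the lactate transporter Slc16a1 (chr3:104638414-104638663, plus strand) and the vasodilator peptide gene Adm (chr7:110627407-110627656, plus strand), which rose with rmCIRP in WT cells, and of the glycolytic enzyme gene Pgk1 (chrX:106186850-106187099, plus strand), which did not pass the test. Each runs 5′ to 3′ with the matched letters in capitals.
Slc2a6 promoter: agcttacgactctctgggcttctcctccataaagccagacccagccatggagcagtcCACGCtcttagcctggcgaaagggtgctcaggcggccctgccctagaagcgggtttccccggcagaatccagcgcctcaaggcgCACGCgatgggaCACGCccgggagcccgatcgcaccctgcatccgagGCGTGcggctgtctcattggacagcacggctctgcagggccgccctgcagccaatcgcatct
Egln3 promoter: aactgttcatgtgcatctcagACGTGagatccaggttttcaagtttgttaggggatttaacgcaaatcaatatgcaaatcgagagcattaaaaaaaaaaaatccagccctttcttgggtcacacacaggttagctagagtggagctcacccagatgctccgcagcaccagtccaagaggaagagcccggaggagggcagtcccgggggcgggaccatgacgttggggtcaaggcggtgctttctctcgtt
Slc16a1 promoter: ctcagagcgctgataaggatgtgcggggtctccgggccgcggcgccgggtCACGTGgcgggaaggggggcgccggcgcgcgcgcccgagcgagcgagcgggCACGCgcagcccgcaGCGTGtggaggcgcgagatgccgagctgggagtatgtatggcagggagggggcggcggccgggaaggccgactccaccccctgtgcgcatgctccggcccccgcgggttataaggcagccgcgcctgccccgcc
Adm promoter: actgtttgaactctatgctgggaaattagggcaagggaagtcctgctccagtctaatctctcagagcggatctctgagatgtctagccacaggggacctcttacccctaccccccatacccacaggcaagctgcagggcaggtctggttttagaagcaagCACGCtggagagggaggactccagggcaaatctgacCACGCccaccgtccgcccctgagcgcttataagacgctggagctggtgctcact
Pgk1 promoter: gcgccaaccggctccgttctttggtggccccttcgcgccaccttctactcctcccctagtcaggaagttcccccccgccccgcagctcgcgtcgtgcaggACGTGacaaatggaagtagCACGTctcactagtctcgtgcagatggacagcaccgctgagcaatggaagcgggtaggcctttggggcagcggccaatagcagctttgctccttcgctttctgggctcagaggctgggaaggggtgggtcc
Matches were present in the Pgk1 window as well as in those of the 4 genes that rose. At least 1 match of either kind was in 43 of the 53 windows (81.1%). The share was 38.6% of all mouse windows and 53.5% of the windows of tested genes. No gene that fell is shown.

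The first comparison asked what rmCIRP did to these genes in WT cells. The genes that rose were led by Slc2a6, Egln3, Vegfa and Adm, and included 2 of the 3 glucose transporters, 1 of the 4 HIF subunit and hydroxylase genes and 3 of the 4 other hypoxia-induced genes, while none of the 3 phosphofructokinase genes and none of the 10 other enzyme genes between glucose 6-phosphate and pyruvate rose. Of the 40 genes, 11 rose and 8 fell at an adjusted p under 0.1 (edgeR quasi-likelihood test with Benjamini-Hochberg adjustment). That was 27.5% and 20%, beside 19.8% of all tested genes that rose and 24.1% that fell. The median log2 fold of the 40 genes was 0.01, beside −0.02 over all tested genes, so they did not move as a block. With upper-quartile scaling, the split was 10 higher and 11 lower. The summed level of macrophage markers was 0.863 times that with PBS, with 5 of the 18 markers higher and 12 lower. The summed level of the 10 fibroblast markers was 697020 ± 25251 (SD, n = 3) with rmCIRP against 831320 ± 31032 with PBS, with 2 higher and 6 lower. The part of either cell type in the changes below was not tested.

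Among the glucose transporters, the lysosomal transporter gene Slc2a6 changed most. Its normalized counts were 218, 214 and 246 with PBS and 687, 717 and 766 with rmCIRP. All rmCIRP libraries were far above all PBS libraries, at a log2 fold of 1.68 ± 0.08 (SE), which is 3.2-fold (adjusted p = 1.86e-13). Slc2a1, the main glucose transporter of dividing cells, had 6638, 6944 and 6704 normalized counts with PBS and 8616, 8357 and 8802 with rmCIRP. It rose 1.27-fold without overlap (log2 fold 0.34 ± 0.09, adjusted p = 0.00365).

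Of the hexokinases, Hk3, the form typical of myeloid cells, had 534, 585 and 580 normalized counts with PBS and 700, 785 and 945 with rmCIRP. It rose in all 3 libraries by a log2 fold of 0.51 ± 0.11 (adjusted p = 0.000714), the rmCIRP libraries being widely spread. Hk1, the housekeeping form, rose by a log2 fold of only 0.08 ± 0.04 (adjusted p = 0.0873) with overlapping libraries, and its call was lost in 4 of the 6 fits that left out a library: without PBS library 2 or 3, or rmCIRP library 2 or 3. Hk2, the form that insulin and hypoxia induce, did not pass.

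At the phosphofructokinase step the genes went in opposite directions. The bifunctional regulators make and degrade fructose 2,6-bisphosphate, the strongest activator of this step. Pfkfb3 had 1614, 1560 and 1706 normalized counts with PBS and 2080, 2024 and 2164 with rmCIRP, and rose by a log2 fold of 0.36 ± 0.07 (adjusted p = 0.000344). Pfkfb4 went the other way, from 444, 428 and 431 to 250, 259 and 285 normalized counts, a log2 fold of −0.72 ± 0.09 (adjusted p = 9.92e-07). Neither gene's libraries overlapped between PBS and rmCIRP. Of the enzymes themselves, the muscle-type gene Pfkm fell (log2 fold −0.35 ± 0.07, adjusted p = 0.000626), the platelet-type gene Pfkp fell (−0.19 ± 0.03, adjusted p = 0.000175) and the liver-type gene Pfkl did not pass.

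Of the 10 other enzymes between glucose 6-phosphate and pyruvate, none rose and 4 fell. They were Aldoc (log2 fold −0.51 ± 0.16, adjusted p = 0.0144), Eno2 (−0.22 ± 0.10, adjusted p = 0.0784), Pkm (−0.13 ± 0.04, adjusted p = 0.00958) and Tpi1, for triose phosphate isomerase (−0.12 ± 0.04, adjusted p = 0.0249). The abundant enzymes thus moved by little: Pkm had 70571, 63442 and 65691 normalized counts with PBS and 61477, 60729 and 61262 with rmCIRP. The Eno2 call was lost whichever of the 6 libraries was left out, the Tpi1 call without PBS library 1 or rmCIRP library 3, and the Pkm call without PBS library 1. Gapdh, the glyceraldehyde 3-phosphate dehydrogenase gene often used as a reference, had 69528, 65657 and 64071 normalized counts with PBS and 63574, 65179 and 65231 with rmCIRP, and did not pass. Gpi1, Aldoa, Pgk1, Pgam1 and Eno1 did not pass either.

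Past pyruvate, Slc16a1, which carries lactate and pyruvate across the membrane (MCT1), rose. It had 759, 740 and 763 normalized counts with PBS and 989, 985 and 981 with rmCIRP (log2 fold 0.38 ± 0.10, adjusted p = 0.00523). The libraries were tightly grouped and apart. The second transporter of this kind, Slc16a3 (MCT4), which exports lactate from glycolytic cells, lay between 3904 and 4627 normalized counts with PBS and with rmCIRP and did not pass. Ldhb, the lactate dehydrogenase form of oxidative tissue, fell by a log2 fold of −0.29 ± 0.09 (adjusted p = 0.00954), while Ldha did not pass. The pyruvate dehydrogenase kinases Pdk1, Pdk3 and Pdk4, which block entry of pyruvate into the citric acid cycle, did not pass. Of the pentose phosphate enzymes, only Pgd, for 6-phosphogluconate dehydrogenase, passed, with a log2 fold of 0.19 ± 0.05 (adjusted p = 0.00732), and G6pdx, Taldo1 and Tkt did not.

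Of the oxygen-sensing genes, Hif1a, the HIF-1α subunit gene, had 10127, 9756 and 10950 normalized counts with PBS and 11150, 10341 and 9562 with rmCIRP. These overlapped, and neither Hif1a nor Epas1, the HIF-2α gene, passed, which says nothing of the HIF proteins. Egln3, the hydroxylase gene that HIF itself induces, had 909, 937 and 907 normalized counts with PBS and 1883, 1753 and 1790 with rmCIRP. It rose 1.96-fold with no overlap (log2 fold 0.97 ± 0.08, adjusted p = 9.57e-10), whereas Egln1, the main hydroxylase under normal oxygen, did not pass. Vegfa, the blood vessel growth factor, had 36117, 41242 and 35621 normalized counts with PBS and 58207, 60092 and 62622 with rmCIRP, a log2 fold of 0.67 ± 0.10 (adjusted p = 1.19e-05). Adm, for adrenomedullin, had 5238, 5512 and 5963 with PBS and 8591, 8383 and 7753 with rmCIRP, a log2 fold of 0.56 ± 0.12 (adjusted p = 0.00114). Ddit4, for the mTORC1 inhibitor REDD1, rose by a log2 fold of 0.45 ± 0.09 (adjusted p = 0.000465). In Vegfa, Adm and Ddit4 every rmCIRP library was above every PBS library, while Bnip3, a mitophagy gene and a classical HIF target, had 806, 925 and 960 normalized counts with rmCIRP, overlapping the 953, 827 and 942 with PBS.

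**Figure D2:**
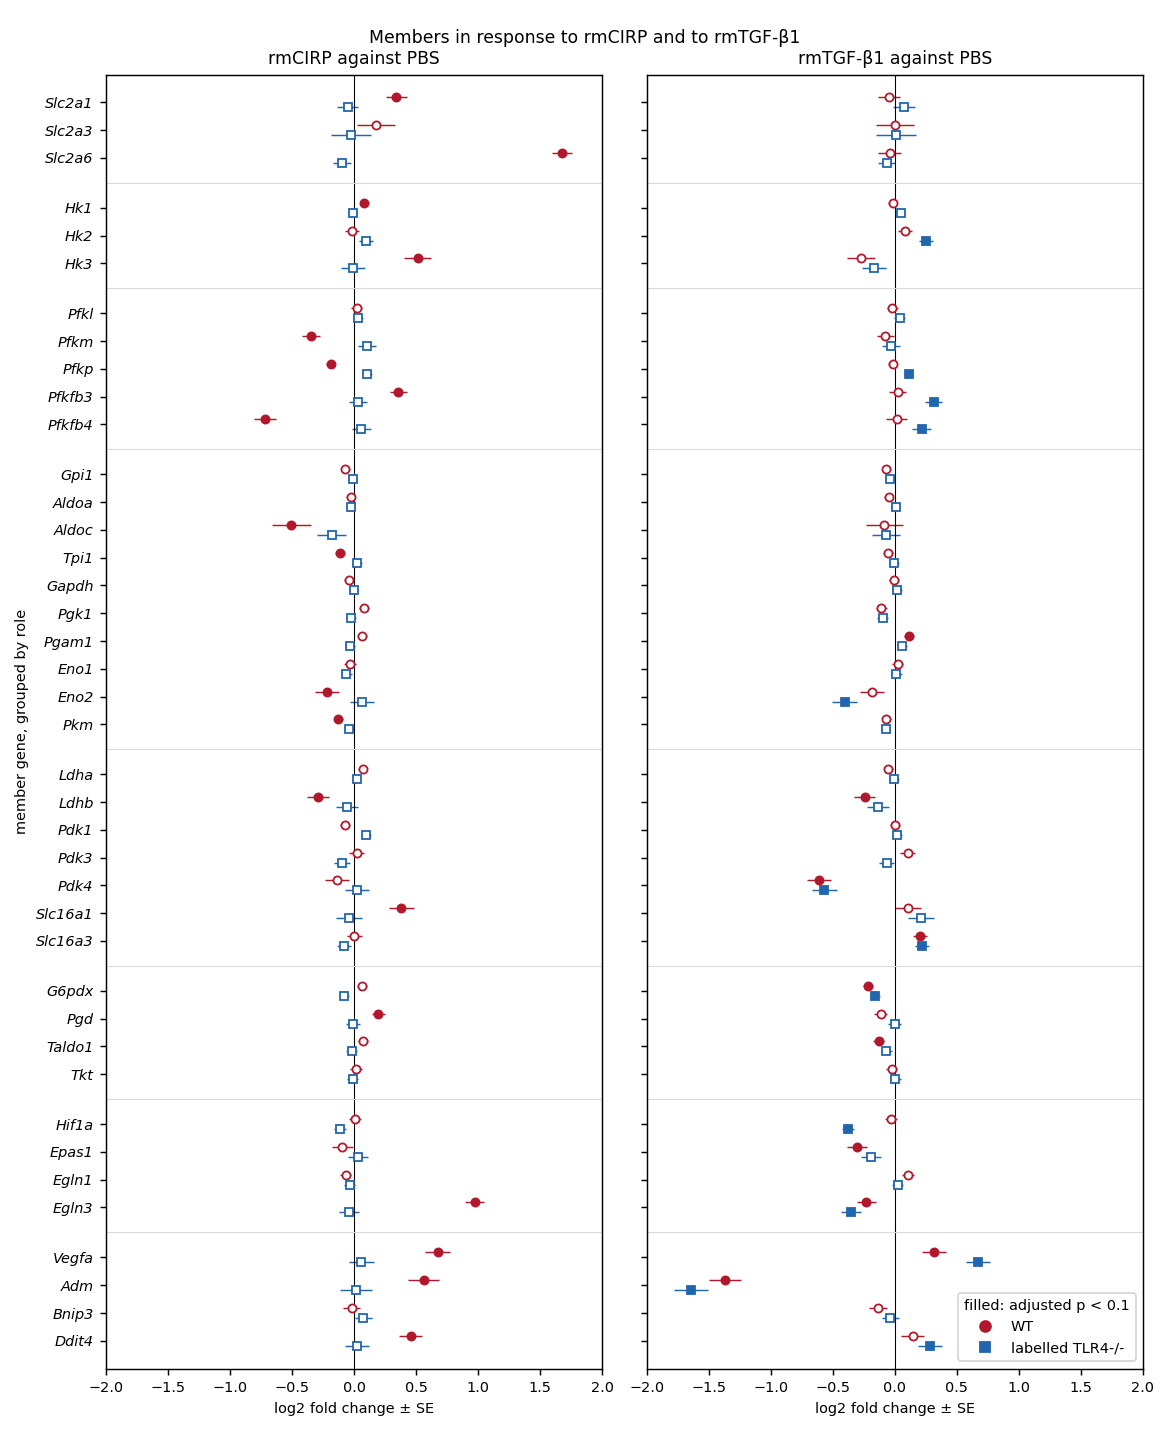
Log2 fold ± SE of each of the 40 genes, grouped by role, for rmCIRP against PBS (left) and rmTGF-β1 against PBS (right) in WT (circles) and labelled TLR4-/- libraries (squares), filled where the adjusted p is under 0.1. With rmCIRP 11 WT genes are filled to the right of 0 and 8 to the left while no square is filled, and with rmTGF-β1 the furthest point in each genotype is Adm.

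The same comparison in the libraries labelled TLR4-/- asked whether these genes answered to rmCIRP there. None of the 40 genes passed, beside 0% of all tested genes by edgeR. DESeq2 called none of the 40 and 32 of all genes. At an unadjusted p under 0.05 there were 4 of the 40 (Pfkp, Pdk1, G6pdx and Hif1a), beside 6.99% of all tested genes. The 3 libraries of each group did not overlap for 10 of the 40, or 25%, beside 13.7% of all tested genes. Those differences were small: the largest in size among the 40 was the log2 fold of −0.18 for Aldoc, from 197, 192 and 241 normalized counts to 180, 182 and 192. Slc2a6 had 587, 685 and 699 normalized counts with PBS and 599, 586 and 651 with rmCIRP. Egln3 had 953, 827 and 835 with PBS and 850, 804 and 881 with rmCIRP. Vegfa had 25033, 25816 and 23790 with PBS and 26083, 25596 and 25677 with rmCIRP. In each of these the groups overlapped.

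The difference between the genotype labels in the rmCIRP response was then tested directly. It passed for 16 of the 40 genes, with the log2 fold higher in the label TLR4-/- for 5 and lower for 11. That was 12.5% and 27.5%, beside 17.1% and 14.3% of all tested genes. With upper-quartile scaling, the split was 7 and 9. A higher log2 fold does not mean a stronger response here, because none of the 40 genes passed with rmCIRP in the label TLR4-/-. Of the 5 genes, Pfkfb4, Pfkm, Pfkp and Tpi1 fell in WT cells. The differences were largest in size for Slc2a6 (log2 −1.77 ± 0.11, adjusted p = 5.6e-11), Egln3 (−1.01 ± 0.11, adjusted p = 4.08e-07), Pfkfb4 (0.78 ± 0.12, adjusted p = 3.59e-05) and Vegfa (−0.62 ± 0.14, adjusted p = 0.00233). Of the 19 genes called in WT cells, the difference did not pass for Hk1, Aldoc, Eno2, Pkm and Ldhb, so a different response was not shown for these 5. The levels with PBS already differed between the labels: Slc2a6 with PBS in the label TLR4-/- (587 to 699 normalized counts) was close to the level that WT cells reached with rmCIRP (687 to 766), and the ranges overlapped.

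**Figure D3:**
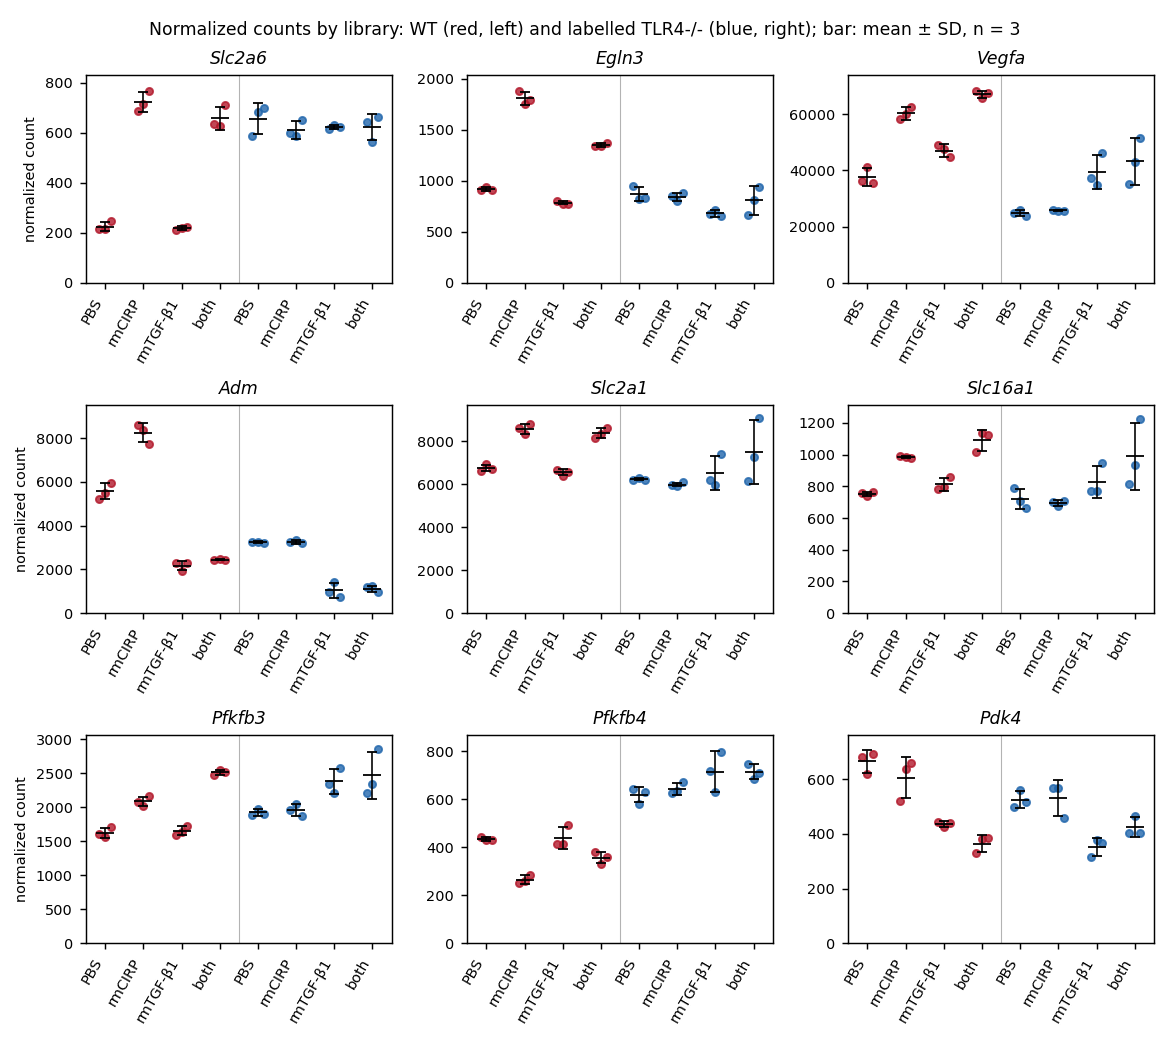
Normalized counts of 9 genes in each library, WT in red at the left and labelled TLR4-/- in blue at the right of each panel, with mean ± SD (n = 3), each axis starting at 0. Slc2a6 and Egln3 are higher in WT libraries with rmCIRP or both than in WT libraries with PBS or rmTGF-β1. Adm is lowest with rmTGF-β1 or both in each genotype, and Pfkfb4 is lowest in WT with rmCIRP.

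The response to rmTGF-β1 in WT cells was smaller and was led by a single gene. Of the 40 genes, 3 rose and 7 fell, or 7.5% and 17.5%, beside 5.77% and 6.65% of all tested genes. Adm had 2274, 1930 and 2284 normalized counts with rmTGF-β1, all below the 5238 to 5963 with PBS, a log2 fold of −1.37 ± 0.13 (adjusted p = 1.06e-06). Its direction was opposite to that with rmCIRP. Pdk4, the kinase gene raised by fasting and fatty acid use, fell from 682, 617 and 693 to 442, 425 and 440 normalized counts (log2 fold −0.61 ± 0.10, adjusted p = 0.00024). G6pdx, the first enzyme of the pentose phosphate pathway, fell from 2496, 2593 and 2567 to 2292, 2095 and 2220 normalized counts (log2 fold −0.22 ± 0.04, adjusted p = 0.00141).

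Epas1 also fell with rmTGF-β1 (log2 fold −0.30 ± 0.08, adjusted p = 0.0254), as did Ldhb (−0.24 ± 0.08, adjusted p = 0.0778), Egln3 (−0.23 ± 0.08, adjusted p = 0.08) and Taldo1, for transaldolase (−0.13 ± 0.04, adjusted p = 0.0728). Vegfa rose to 49011, 47493 and 44631 normalized counts without overlap (log2 fold 0.32 ± 0.10, adjusted p = 0.0486). Slc16a3 (0.20 ± 0.06, adjusted p = 0.0292) and the phosphoglycerate mutase gene Pgam1 (0.11 ± 0.04, adjusted p = 0.0762) rose with overlapping libraries. This count fell whichever library was left out of either group. It fell from 10 to 7, 6 and 4 without PBS library 1, 2 and 3, and to 6, 3 and 5 without rmTGF-β1 library 1, 2 and 3. Adm, Pdk4 and G6pdx kept their calls in all 6 of these fits, Epas1 in all but the fit without rmTGF-β1 library 2, and the other 6 lost theirs in 4 to 6 of them.

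In the libraries labelled TLR4-/-, rmTGF-β1 raised 7 of the 40 genes and lowered 6, or 17.5% and 15%, beside 12.1% and 11.7% of all tested genes. Adm had 3276, 3271 and 3202 normalized counts with PBS and 945, 1436 and 741 with rmTGF-β1 (log2 fold −1.65 ± 0.14, adjusted p = 4.86e-08). Vegfa had 37145, 34862 and 46244 with rmTGF-β1, all above the 23790 to 25816 with PBS (log2 fold 0.67 ± 0.10, adjusted p = 5.11e-05), library 3 being the highest. Pdk4 had 315, 376 and 366 normalized counts beside 497, 560 and 518 with PBS (log2 fold −0.57 ± 0.10, adjusted p = 0.000346). The phosphofructokinase and hexokinase steps also moved, with rises of Pfkfb3 (0.31 ± 0.07, adjusted p = 0.00268), Hk2 (0.25 ± 0.06, adjusted p = 0.003), Pfkfb4 (0.22 ± 0.08, adjusted p = 0.0568) and Pfkp (0.11 ± 0.03, adjusted p = 0.0278). Slc16a3 and Ddit4 rose, and Eno2, Egln3 and G6pdx fell, at log2 folds of 0.22, 0.28, −0.41, −0.35 and −0.16. The Pfkfb4 call was lost without PBS library 2 or rmTGF-β1 library 1 or 3, the Ddit4 call without PBS library 2 or 3 or rmTGF-β1 library 3, and the Pfkp call without PBS library 3.

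Hif1a was the 1 gene of the 40 whose rmTGF-β1 response differed between the labels by the test of the difference (log2 −0.35 ± 0.07, adjusted p = 0.088), beside 0.0861% of all tested genes. It had 11021, 10593 and 10061 normalized counts with PBS and 7999, 8075 and 8170 with rmTGF-β1 in the label TLR4-/- (log2 fold −0.38 ± 0.05, adjusted p = 1.24e-05). In WT cells it had 10034, 9823 and 10359 with rmTGF-β1, inside the range with PBS. The call on the difference was lost in 8 of the 12 fits that left out a library.

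Adding rmCIRP on top of rmTGF-β1 in WT cells raised 14 of the 40 genes and lowered 11, or 35% and 27.5%, beside 20.5% and 21.7% of all tested genes. With upper-quartile scaling, the split was 9 and 13. Slc2a6 had 212, 221 and 225 normalized counts with rmTGF-β1 alone and 636, 627 and 710 after both (log2 fold 1.58 ± 0.08, adjusted p = 5.6e-13). Egln3 had 805, 776 and 776 with rmTGF-β1 alone and 1342, 1343 and 1373 after both (0.78 ± 0.08, adjusted p = 6.17e-08). Pfkfb3 had 1598, 1644 and 1726 with rmTGF-β1 alone and 2478, 2551 and 2517 after both (0.60 ± 0.07, adjusted p = 5.83e-07). All libraries with both were above all with rmTGF-β1 alone in these 3 genes. Hk3 (0.65), Vegfa (0.51), Ddit4 (0.50), Slc16a1 (0.42) and Slc2a1 (0.35) rose too, and Pfkm (−0.31), Pfkp (−0.24) and Pfkfb4 (−0.30) fell, all in log2 fold. The other 6 genes that rose and 8 that fell changed by −0.37 (Aldoc) to 0.22 (Bnip3), and of these 14 only Epas1 (−0.34) and Eno2 (−0.34) kept their calls whichever library was left out. Adm did not pass, with 2432, 2498 and 2427 normalized counts with both. The test of whether the WT rmCIRP response differed by the presence of rmTGF-β1 (interaction term) passed for none of the 40 genes. This held by edgeR and by DESeq2, beside 0.0492% of all tested genes by edgeR, so a different response was not shown. At an unadjusted p under 0.05 there were 4 of the 40 (Pfkfb3, Pfkfb4, Adm and Bnip3), beside 5.64% of all tested genes.

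Against rmCIRP alone, both treatments together raised 5 of the 40 genes and lowered 10, or 12.5% and 25%, beside 10% and 10.5% of all tested genes. Adm went from 8591, 8383 and 7753 normalized counts with rmCIRP to 2427 to 2498 (log2 fold −1.75 ± 0.13, adjusted p = 6.48e-09). Pdk4 (−0.74 ± 0.10, adjusted p = 1.82e-05), Epas1 (−0.55 ± 0.09, adjusted p = 0.000129) and Egln3 (−0.42 ± 0.08, adjusted p = 0.000378) fell as well. Pfkfb4 (0.43 ± 0.09, adjusted p = 0.00199) and Slc16a3 (0.34 ± 0.06, adjusted p = 0.000175) rose. The remaining calls were rises of Pfkfb3 (0.26), Hk2 (0.16) and Pgam1 (0.15) and falls of Eno2 (−0.31), Taldo1 (−0.24), G6pdx (−0.19), Pgd (−0.16), Pgk1 (−0.12) and Ldha (−0.10), of which Hk2, Eno2, Pgd, Pgk1 and Ldha lost theirs in 3 to 6 of the 6 fits that left out a library. These comparisons share their libraries with those above, so the values stand side by side and not as independent support.

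In the libraries labelled TLR4-/-, adding rmCIRP to rmTGF-β1 changed 1 of the 40 genes, Hif1a (log2 fold 0.19 ± 0.05, adjusted p = 0.074), or 2.5%, beside 2.69% of all tested genes. The libraries with both varied widely there: Slc2a1 had 6137, 7266 and 9080 normalized counts and Vegfa had 35132, 42951 and 51648. Library 3 was the highest of the 3 for 19 of the 40 genes and the lowest for 17, and library 1 was the highest for 7 and the lowest for 16. Without library 1 with both, 12 genes passed, and without library 3 with both, or library 1 or 2 with rmTGF-β1, none did. Without library 3 with rmTGF-β1, 6 passed.

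With PBS alone, most of the 40 genes differed between the labels. In the label TLR4-/-, 24 were higher and 7 lower than in WT, or 60% and 17.5%, beside 23.2% and 24% of all tested genes, with a median log2 difference of 0.15 beside −0.02 over all tested genes. Hk3 had 1998, 2027 and 2045 normalized counts in the label TLR4-/- against 534 to 585 in WT (log2 1.83 ± 0.10, adjusted p = 1.41e-12). Slc2a6 was higher by 1.54 ± 0.08 (adjusted p = 2.94e-13) and Aldoc by 1.35 ± 0.13 (adjusted p = 1.75e-08). The libraries of the labels did not overlap in these 3 genes. All 18 macrophage markers were higher in the same libraries, by a median log2 difference of 2.23, and the part of macrophages in the differences of the 40 genes was not tested.

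Of the 10 enzymes between glucose 6-phosphate and pyruvate, 9 were higher in the label TLR4-/- and Eno2 did not pass. Apart from Aldoc, they were higher by 0.11 (Gapdh) to 0.33 (Pgam1) on the log2 scale. All 4 pentose phosphate genes were higher, G6pdx most, with 3415, 3453 and 3541 normalized counts against 2496, 2593 and 2567 (0.44 ± 0.04, adjusted p = 5.67e-09), followed by Pgd (0.41 ± 0.05, adjusted p = 1.89e-06), Tkt, for transketolase (0.28 ± 0.05, adjusted p = 2.73e-05) and Taldo1 (0.22 ± 0.04, adjusted p = 0.000253). G6pdx, Pgk1 and Pdk3 lie on chromosome X, and the labels also differ in Xist. Of the 8 genes of oxygen sensing and the hypoxia response, 3 were lower, 3 higher and 2 did not pass. The lower ones were Adm (−0.78 ± 0.13, adjusted p = 3.14e-05), Vegfa (−0.60 ± 0.10, adjusted p = 3.52e-05) and Ddit4 (−0.47 ± 0.10, adjusted p = 0.000406). The higher ones were Epas1 (0.28 ± 0.08, adjusted p = 0.00745), Egln1 (0.24 ± 0.05, adjusted p = 0.000187) and Bnip3 (0.15 ± 0.07, adjusted p = 0.0838), and Hif1a and Egln3 did not pass. Ldhb, Pdk4, Pfkm and Pdk3 were lower. The Gapdh call was lost without WT library 3 or library 2 labelled TLR4-/-, the Bnip3 call without WT library 2 or any library labelled TLR4-/-, and the Pfkm call without WT library 1.

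**Figure D4:**
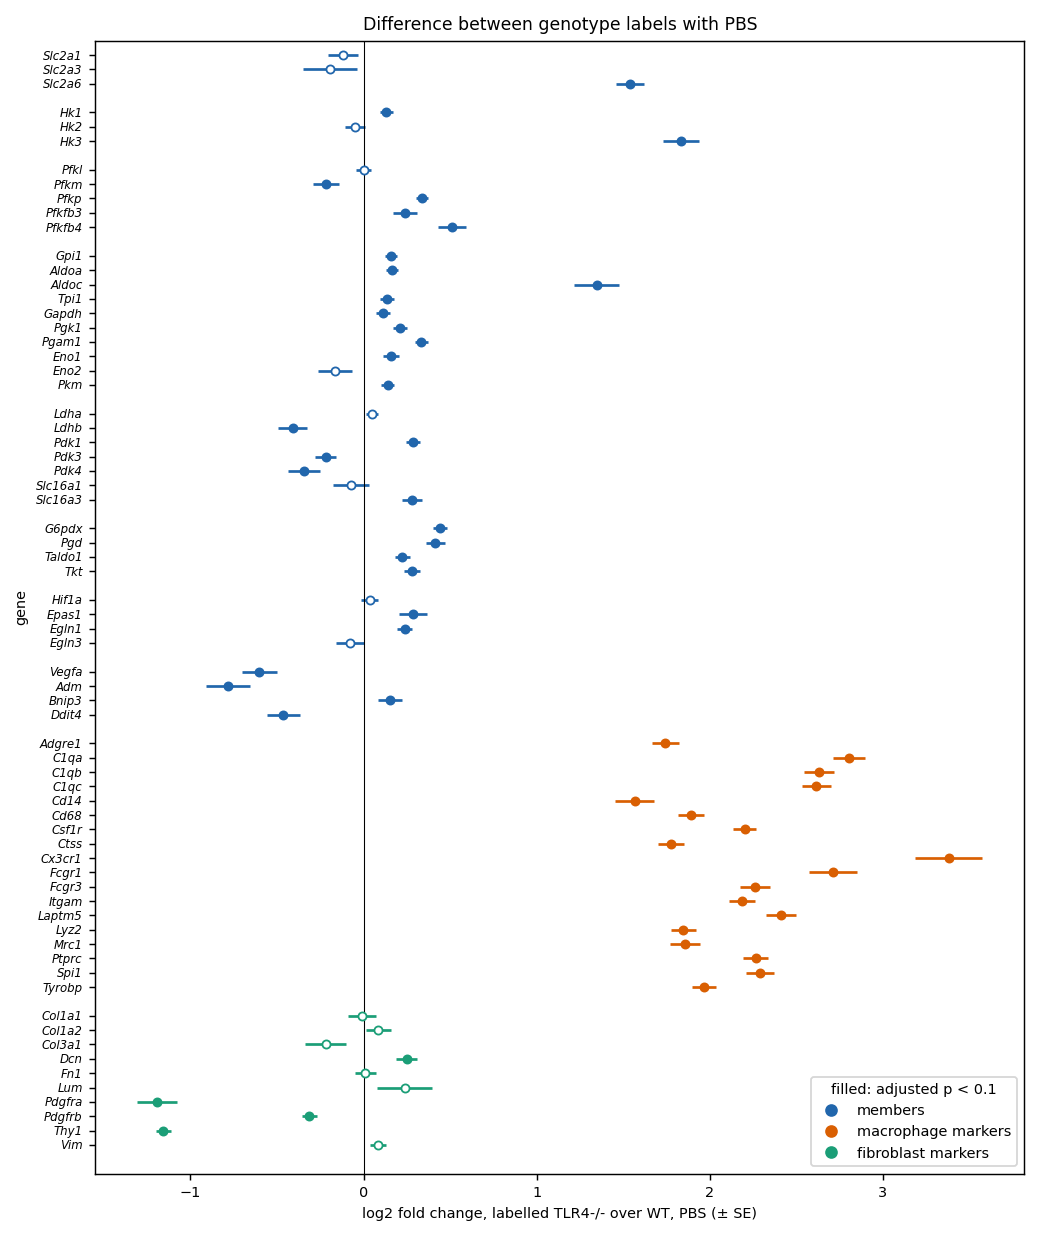
Log2 difference ± SE between the label TLR4-/- and WT with PBS for the 40 genes by role, 18 macrophage markers and 10 fibroblast markers, filled where the adjusted p is under 0.1. Hk3, Slc2a6 and Aldoc lie furthest to the right among the 40 genes, all 18 macrophage markers lie to the right of 1.5, and the fibroblast markers lie on either side of 0.

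Further genes of the same pathways were read from wider lists. Of 43 other glycolysis and pyruvate genes, 36 were tested, and in WT cells 4 rose and 10 fell with rmCIRP, or 11.1% and 27.8%, beside 19.8% and 24.1% of all tested genes. Eno3, the muscle enolase, fell from 3389, 2664 and 3005 to 1805, 1632 and 1636 normalized counts (log2 fold −0.84 ± 0.16, adjusted p = 0.000176), and so did the lactate and pyruvate transporter gene Slc16a7 (−0.84 ± 0.13, adjusted p = 3.47e-05). Of 41 other hypoxia-response genes, 38 were tested, and 13 rose and 10 fell, or 34.2% and 26.3%, beside the same shares of all tested genes. The platelet-derived growth factor gene Pdgfb rose from 160, 195 and 200 to 566, 575 and 563 normalized counts (log2 fold 1.62 ± 0.13, adjusted p = 8.58e-10). Stc1, for stanniocalcin 1, rose by 1.53 ± 0.25 (adjusted p = 4.89e-05) and the lipoprotein lipase inhibitor gene Angptl4 by 1.42 ± 0.20 (adjusted p = 7.01e-06), while Zfp395 fell (−0.75 ± 0.12, adjusted p = 5.01e-05). In the libraries labelled TLR4-/-, none of either list passed with rmCIRP against PBS by edgeR. Added to rmTGF-β1 there, rmCIRP raised 2 of the 38 of the second list, or 5.26%, beside 2.69% of all tested genes. The summed level of that list in the libraries with both was 133060, 145880 and 208190 normalized counts. With rmTGF-β1 in WT cells, 1 of the first list rose (Slc2a10, 0.23 ± 0.05, adjusted p = 0.0052), or 2.78%, and none fell. Of the second, 4 rose and 4 fell, or 10.5% each, beside 5.77% and 6.65% of all tested genes, led by Pdgfb (0.96 ± 0.13, adjusted p = 5.36e-05) and Bhlhe40 (0.53 ± 0.11, adjusted p = 0.00292) upward and by Arnt2 (−0.39 ± 0.07, adjusted p = 0.00108), Bnip3l (−0.20 ± 0.03, adjusted p = 0.000491) and Insig2 (−0.17 ± 0.05, adjusted p = 0.0616) downward. With PBS, in the label TLR4-/- against WT, 6 of the first list were higher and 8 lower, or 16.7% and 22.2%, and 14 of the second were higher and 4 lower, or 36.8% and 10.5%, beside 23.2% and 24% of all tested genes.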

How the data were processed

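RNA of pulmonary fibroblasts was sequenced as 24 stranded total RNA libraries. The authors aligned reads with STAR2 to a mouse GENCODE reference and deposited HTSeq output, 1 file per library, holding raw read counts for each gene symbol with no normalization. The submitters' processing notes name the build NCBIM37. The annotation release, and whether HTSeq counted by strand, are not given in the sources used here. The 5 tally rows of reads not assigned to a gene, 14.5% to 16.1% of the reads counted in each file, were left out.

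Genes were tested in R 4.3.3 with edgeR 4.0.16. The filterByExpr function by condition kept 16258 of the 34285 genes with a count, libraries were scaled by TMM, and a single quasi-likelihood model of the 24 libraries estimated 8 condition means. Contrasts of these means gave F-tests, whose p-values were adjusted by Benjamini-Hochberg across the tested genes and held to a threshold of 0.1. Genotype differences and the interaction were contrasts in the same model. Levels are counts divided by DESeq2 1.42.0 size factors. Exon lengths and chromosomes came from GENCODE M21 and promoters from RefSeq GRCm38.p6, by symbol. Copies that share a symbol stem are in the files for 7 of the 40 genes, and none held over 0.409% as many reads as its gene. Copies were sought by symbol and not by sequence. Reads that aligned to several places are not in the gene counts, so reads lost to copies were not measured. Libraries were grouped by their labels. The labels do not say that replicates are separate animals or cultures, so p-values measure only the spread between these libraries, which may be technical. The 40 genes and the lists were chosen with earlier results of these data known. Every member may be named with its levels, and of the wider lists the 3 largest rises and 3 largest falls with rmCIRP and with rmTGF-β1 in WT cells, leaving out genes that missed the threshold or averaged under 50 normalized counts. Scripts were tested on simulated data. Alternatives were DESeq2, RLE and upper-quartile scaling, no filter or a mean count of at least 10, the compared libraries alone, the replicate number as a block, and leaving out each library.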

Additional observations from a re-analysis of the deposited data

Results flagged for a closer look

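The response to rmCIRP differed between the genotype labels, by the contrast of the responses in edgeR, for 16 of the 40 genes, each given here as the log2 fold in the label TLR4-/- minus that in WT. The response was lower in the label TLR4-/- for the transporter genes Slc2a6 (−1.77), Slc16a1 (−0.42) and Slc2a1 (−0.39), for the hypoxia-response genes Egln3 (−1.01), Vegfa (−0.62), Adm (−0.55) and Ddit4 (−0.43), for the enzyme genes Hk3 (−0.52), Pgd (−0.21) and G6pdx (−0.15), and for the regulator gene Pfkfb3 (−0.32). The log2 fold was higher for Pfkfb4 (0.78), Pfkm (0.45), Pfkp (0.30), Pdk1 (0.17) and Tpi1 (0.14). Of these, Pfkfb4, Pfkm, Pfkp and Tpi1 fell in WT cells and did not pass in the label TLR4-/-. G6pdx and Pdk1 passed with rmCIRP in neither label. The Tpi1 difference was lost in 11 of the 12 fits that left out a library, that of Pdk1 without library 2 with rmCIRP of either label, and that of Pgd without WT library 3 with rmCIRP or library 2 labelled TLR4-/- with PBS. With upper-quartile scaling, G6pdx and Pgd were lost. The test of a different response to rmTGF-β1 between the labels passed for Hif1a alone of the 40 genes (−0.35). The labels also differ in Xist, in macrophage, epithelial and endothelial marker levels and in cell preparation, so these differences cannot be told apart from a difference in Tlr4.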

How the results depend on the processing

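Over 12 comparisons there were 157 calls among the 40 genes, of which 114 held under every alternative and 43 were lost under at least 1, 42 of them when a library was left out. None reversed, and 21 moved in size by over 1.5 times. The count of genes called stayed within 1.5 times of its value under DESeq2, the other scalings, the other filters and the fit to the compared libraries alone, in all but 3 comparisons. For both treatments against rmTGF-β1 in the label TLR4-/-, DESeq2 called 3 genes, the fit without a filter 8 and the fit to the compared libraries 0, and leaving out a library gave 0 to 12. For the genotype difference in the rmTGF-β1 response, the fit without a filter called 4 and the fit to the compared libraries 0, with 0 to 2 when a library was left out. For the interaction term in WT cells, these fits called 1 gene each. For rmTGF-β1 against PBS in WT cells, leaving out a library gave 3 to 7. For these changes the cause was not tested.

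Replicate numbers showed little pairing of the libraries on average. Over 84 pairs of same-numbered libraries the mean correlation of deviations was 0.012 (−0.117 to 0.369), beside −0.00597 for pairs with different numbers. Of the 84 pairs, 4 exceeded 0.1, and 12 of 24 libraries correlated best with their own number among 3. A mean over all conditions cannot show whether the libraries of some conditions were paired. A replicate block in the model gave 18 called genes for rmCIRP against PBS in WT cells and 11 for rmTGF-β1, beside 19 and 10 without it. With 3 libraries per condition, leaving 1 out means that 2 remain. The Hk1 call with rmCIRP and the Pgam1 call with rmTGF-β1 in WT cells, and the Gapdh call between the labels, all near 0.1 on the log2 scale, were lost with upper-quartile scaling. For genes with few reads, such as Slc2a3 and Aldoc, counting limits the precision.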

Other observations

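Gapdh, often used to normalize RT-PCR, had means of 63569 to 66419 normalized counts in the 4 WT conditions and of 68056 to 72402 in the 4 conditions labelled TLR4-/-. It passed the edgeR test in none of the treatment comparisons made here, and with PBS it was higher in the label TLR4-/- by 0.11 ± 0.04 (SE) on the log2 scale.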
